A study of Mus musculus with 96 samples.

Results

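The let-7a to let-7f hairpins are 9 members of the let-7 microRNA family, read here as 9 rows out of 1187 hairpin rows in a table of liver microRNA sequencing. They were chosen by hairpin identifier: let-7a-1 (MI0000556), let-7a-2 (MI0000557), let-7b (MI0000558), let-7c-1 (MI0000559), let-7c-2 (MI0000560), let-7d (MI0000405), let-7e (MI0000561), let-7f-1 (MI0000562) and let-7f-2 (MI0000563). The libraries came from 96 C57BL/6 mice of an allelic series of the Huntington's disease gene Htt, taken at 6 and 10 months, with 4 females and 4 males for each genotype and age. Knock-in mice were heterozygous: beside 1 wild-type Htt allele they carried 1 allele in which exon 1 is human, with a CAG tract of 20 (Q20), 50 (Q50), 92 (Q92) or 140 (Q140) repeats. Wild-type (WT) littermates were taken from 2 lines only, Q20 and Q50, so the design has 6 genotype and line groups in each sex and age, 24 groups in all. Each mouse was sampled once, so the 2 ages are different animals. According to the labels, Q20 and Q50 mice were housed with WT mice of their line, and Q92 and Q140 mice with their own genotype. The methods of the study instead describe cages of heterozygous and WT mice in about equal number, without setting any line apart. Genotype cannot be checked in a table of microRNAs, which does not measure Htt, and the tissue label was not checked here because the other rows carry identifiers without names.

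A let-7 gene is transcribed as a long primary RNA, from which a hairpin is cut and then trimmed to a mature RNA of either arm, named 5p or 3p. The mature let-7 5p RNA guides Argonaute proteins to partly complementary sites in messenger RNAs and lowers their output. The family was first described in worm development, rises as mammalian tissues mature, is blocked by the RNA-binding proteins Lin28a and Lin28b, and is known to repress growth genes such as Hmga2 and Igf2bp1. It is among the abundant microRNA families of adult liver.

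The 6 mature 5p sequences of these hairpins are shown because they define the family and because several hairpins give the same one. They are taken from RefSeq (GRCm38.p6), with the seed, bases 2 to 8 from the 5′ end, in capitals.
let-7a-5p: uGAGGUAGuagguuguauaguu
let-7b-5p: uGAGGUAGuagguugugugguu
let-7c-5p: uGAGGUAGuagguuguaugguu
let-7d-5p: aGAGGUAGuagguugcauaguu
let-7e-5p: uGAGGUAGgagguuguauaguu
let-7f-5p: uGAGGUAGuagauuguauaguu

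All 6 share 1 seed. Counting positions from the 5′ end and taking let-7a-5p as the reference, let-7c-5p differs by A19G, let-7e-5p by U9G and let-7f-5p by G12A. The reference differs from let-7b-5p by A17G and A19G, and from let-7d-5p by U1A and U16C. let-7a-5p is held whole by let-7a-1 and let-7a-2, let-7c-5p by let-7c-1 and let-7c-2, and let-7f-5p by let-7f-1 and let-7f-2. A read of the 5p arm therefore fits both copies of such a pair equally well, and only 3p reads or longer reads tell the copies apart.

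The 3p sequences of the pairs that the results turn on are shown for that reason, with no part in capitals.
let-7c-1-3p: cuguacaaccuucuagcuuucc
let-7c-2-3p: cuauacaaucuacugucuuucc
let-7f-1-3p: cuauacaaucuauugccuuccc
let-7f-2-3p: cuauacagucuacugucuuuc

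The 3p sequence of let-7c-2 is also held by let-7a-1. The rows of the table are whole hairpins, so the 5p and 3p arms cannot be told apart in any value below.

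The 9 hairpins lie on 6 chromosomes of GRCm38. let-7a-1 (chr13:48538179-48538272), let-7f-1 (chr13:48537829-48537917) and let-7d (chr13:48536012-48536114) lie on the minus strand with gaps of 261 and 1714 bases, in exons of the long noncoding RNA gene 6720427I07Rik. let-7c-2 (chr15:85706603-85706697) and let-7b (chr15:85707319-85707403) lie 621 bases apart on the plus strand, in exons of the noncoding gene Lncppara. The other 4 stand apart from each other, all on the plus strand and all in introns. let-7a-2 (chr9:41536716-41536811) lies in the noncoding genes 3110039I08Rik and Gm49317, and let-7c-1 (chr16:77599657-77599750) in the noncoding gene Mir99ahg. let-7e (chr17:17830352-17830444) lies in Spaca6, a gene for a sperm protein needed for fertilization, and let-7f-2 (chrX:151912346-151912428) in Huwe1, which encodes a ubiquitin ligase. In these data the hairpin lengths computed from the deposited counts and FPKM matched the RefSeq hairpin length for 9 of 9 members.

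The libraries held between 2195052 and 6662671 estimated counts, with a median of 5149567, and 1018 of the 1187 hairpins had a count above 0 in some library. The lowest count of any member in any library was 161, for let-7f-1, and the median count per library ran from 1087 for let-7e to 89397 for let-7f-2. Libraries whose connectivity to the others of their age (Z.k, a robustly standardized sum of similarities) was under -5 were left out of the tests. There were 0 at 6 months and 4 at 10 months: replicate 1 of the Q92 females, replicate 2 of the Q92 males, and replicate 3 of the WT males in each line. Levels below are of all 96 libraries, in CPM, the count scaled to a common column sum, unless they are said to be of the 92 in the tests.

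A set of 10 libraries stood apart in how the counts of paired hairpins were divided, and they are described first because several results touch them. The label of each library ends in 1 of 36 library tags, and these 10 are all of the libraries with the tags LB1 (4 libraries), LB15 (2), LB26 (2) and LB27 (2). In them let-7f-1 ran from 54.3 to 120 CPM, with a median of 69.9. In the other 86 libraries it ran from 341 to 620 CPM, with a median of 511, and the ranges did not overlap. The 4 tags were singled out after the data were seen, so this separation is a description and not a test. The ratio of let-7f-2 to let-7f-1 ran from 94.5 to 290 in the 10 libraries and from 26.5 to 45.3 in the others. The ratio of let-7c-2 to let-7c-1 also separated them, at 0.931 to 2.74 against 3.16 to 5.44. The ratio of let-7a-1 to let-7a-2 did not: it ran from 6.43 to 26.8 in the 10 libraries and from 5.10 to 16.9 in the others.

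**Figure D1:**
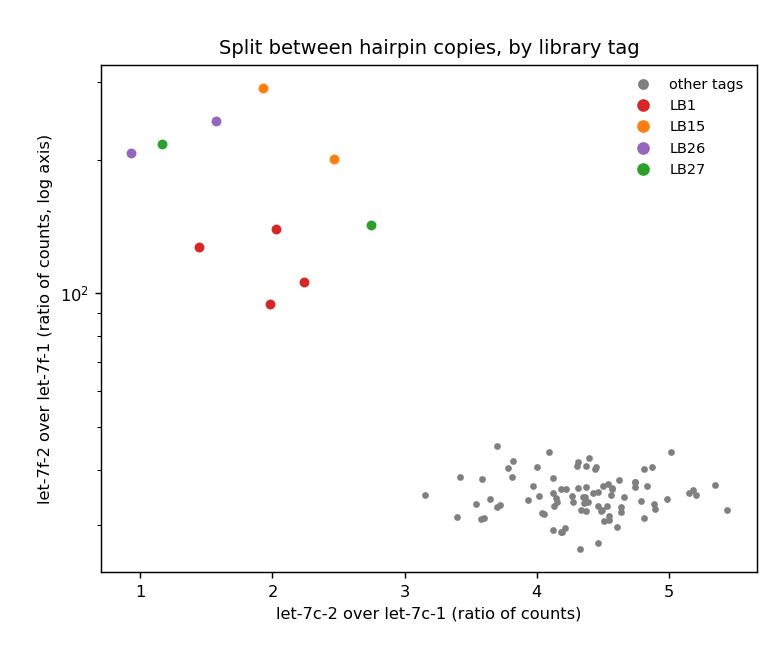
Ratio of let-7f-2 to let-7f-1 (vertical, log axis) against the ratio of let-7c-2 to let-7c-1 (horizontal) in each of 96 libraries, coloured by library tag. The 10 libraries with tags LB1, LB15, LB26 and LB27 lie at 94.5 to 290 on the vertical axis and the other 86 at 26.5 to 45.3.

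The other members differed less between these libraries, and their ranges overlapped. The median of let-7c-1 was 1572 CPM in the 10 libraries and 921 CPM in the others, and that of let-7c-2 was 3057 and 3872 CPM. The sum of let-7c-1 and let-7c-2 had medians of 4621 and 4791 CPM, but the other sums were lower in the 10 libraries. Medians were 4616 and 6735 CPM for let-7a-1 plus let-7a-2, and 13068 and 17947 CPM for let-7f-1 plus let-7f-2. All 9 members together had medians of 24778 and 33157 CPM. let-7e had medians of 149 and 228 CPM, let-7a-1 of 4405 and 6189 CPM, let-7a-2 of 325 and 485 CPM, and let-7f-2 of 13004 and 17420 CPM. let-7d and let-7b differed least, with medians of 1384 and 1551 CPM for let-7d and 1361 and 1435 CPM for let-7b. Like let-7e, which differed more, let-7d and let-7b have no second copy. Among the 10, the 4 libraries with tag LB1 had the lowest let-7f-2, at 7381, 8055, 8835 and 9341 CPM, while the lowest of the other 92 libraries was at 11874 CPM, in a library with tag LB26.

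The 10 libraries are spread over the design: 5 at each age, 4 females and 6 males, 3 Q50, 3 WT of the Q50 line, 2 Q92, 1 Q20, 1 Q140 and 0 of the Q20 line's WT. They fall on all 4 lane tags, 9 of them entered the tests, and what the tag stands for is not stated. What made the copies divide differently, and the summed members lower, in them was not tested. Several results below are given with and without them, and the fits without them were not planned beforehand.

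The counts of most members were not whole numbers. let-7a-1, let-7a-2, let-7b, let-7c-1, let-7c-2 and let-7f-1 had a value that was not whole (tolerance 0.0001) in 96 of 96 libraries, let-7f-2 in 95 and let-7e in 87, but let-7d in only 15. How a read that fits several hairpins was shared among them was not stated, so the split between copies is an estimate, and the comparisons below were also run on the sum of each pair.

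Together the 9 hairpins held a median of 3.29% of all counts, from 1.79% to 4.12% over the 96 libraries. let-7f-2 took a median of 53.1% of the family's counts (38.1% to 60.5%), followed by let-7a-1 with 18.5% and let-7c-2 with 12.2%. let-7e took the smallest median share, 0.695%. By mean CPM, let-7f-2 stood 13th, let-7a-1 22nd and let-7c-2 31st of all hairpins, and let-7e 101st. Levels of different members were compared per length, in FPKM, which divides by the length of the whole hairpin. How far hairpin length affects the reads of a mature arm was not tested. The median over 96 libraries was 207423 FPKM for let-7f-2, 64864 for let-7a-1, 40612 for let-7c-2, 16882 for let-7b, 14849 for let-7d, 9957 for let-7c-1, 5642 for let-7f-1, 5011 for let-7a-2 and 2393 for let-7e.

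Most steps in this order held in every library. Each of let-7f-2, let-7a-1, let-7c-2, let-7c-1 and let-7a-2 was above its next neighbour in 96 of 96 libraries. let-7b was above let-7d in 89 libraries and let-7d above let-7c-1 in 86. The order of let-7b and let-7d depends on the scale: in CPM let-7d had the higher mean, 1555 against 1433 CPM. let-7f-1 and let-7a-2 were the closest pair, with let-7f-1 higher in 60 of 96 libraries and let-7a-2 higher in the rest, which include the 10 libraries with low let-7f-1.

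**Figure D2:**
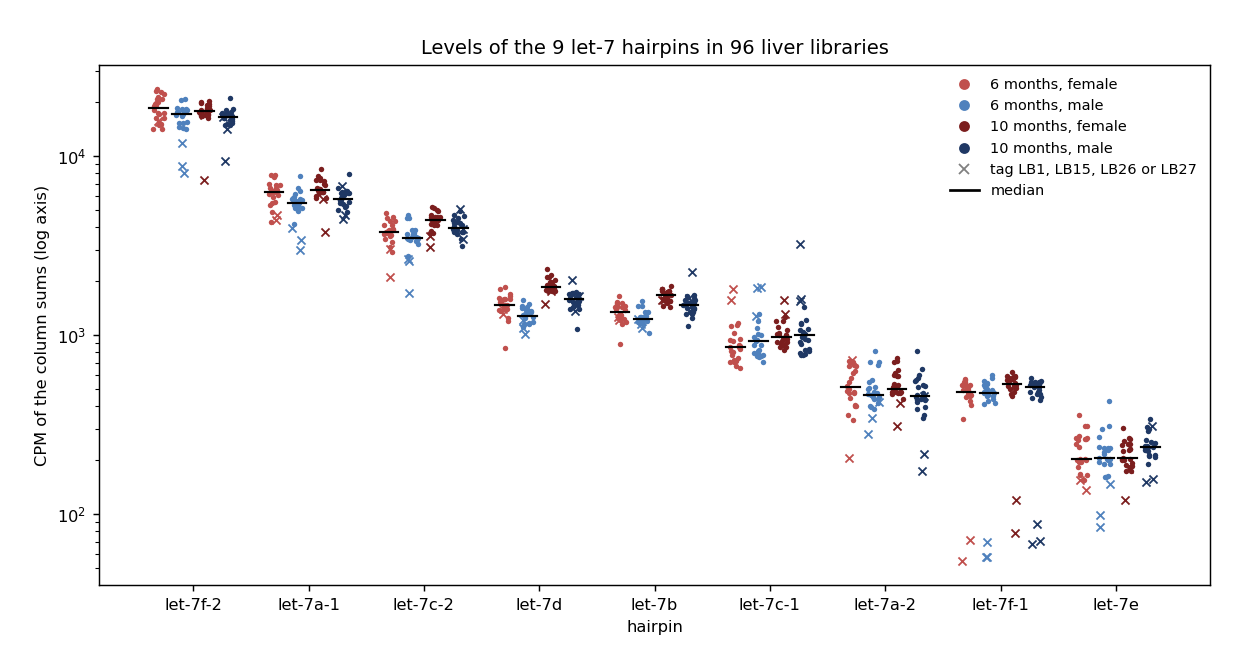
Level of each hairpin in CPM of the column sums (log axis) in 96 libraries, by age and sex. Points are libraries, crosses are the 10 libraries with tags LB1, LB15, LB26 and LB27, and black lines are medians; let-7f-1 falls to 54.3 to 120 CPM in those 10 libraries.

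Across the 24 groups of 4 mice the means of a member varied by less than 2 times. The ratio of the highest to the lowest group mean was 1.36 for let-7a-1, 1.37 for let-7c-2, 1.43 for let-7f-2, 1.44 for let-7b and 1.70 for let-7d. It was 1.60 for let-7f-1, 1.69 for let-7e and 1.75 for let-7a-2. It was highest for let-7c-1, whose group means ran from 804 to 1448 CPM. The highest group mean of let-7d was in Q50 females at 10 months (1970 ± 170 CPM, SD, n = 4) and the lowest in WT males of the Q20 line at 6 months (1159 ± 58.0 CPM, SD, n = 4). let-7b had its lowest mean in the same group (1197 ± 48.8 CPM, SD, n = 4) and its highest in Q92 females at 10 months (1728 ± 115 CPM, SD, n = 4). The highest mean of let-7c-1, in Q92 males at 10 months, rests on 1 library at 3227 CPM with tag LB26. That library was also left out of the tests for its connectivity.

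The first comparison is between the sexes, which the design balances within genotype and age. Male livers had less let-7d and let-7a-1 than female livers at both ages, less let-7f-2 at 6 months and less let-7b at 10 months. The changes lay between -16.4% and -10.9%. All were tested with edgeR's quasi-likelihood test over all hairpins, with genotype, line and lane tag as covariates, and are differences in log2 (male minus female) with Benjamini-Hochberg adjusted p over the whole table. At 6 months 3 of 9 members passed the threshold of 0.05, all lower in males, where 38.2% of 374 hairpins tested passed in either direction and 15.8% were lower. At 10 months 3 of 9 passed, all lower, where 45.2% of 383 hairpins passed and 23.2% were lower. The share of members called in either direction is near the background at both ages. The median over the 9 members was -0.07 at 6 months and -0.11 at 10 months, and over all hairpins tested 0.02 and -0.02.

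let-7d, which shares its primary transcript region with let-7a-1 and let-7f-1, showed the widest gap between the sexes. At 6 months its lowest, median and highest levels were 843, 1477 and 1854 CPM in 24 females and 1018, 1279 and 1569 CPM in 24 males. At 10 months they were 1487, 1865 and 2334 CPM in 24 females and 1075, 1581 and 2035 CPM in 24 males. The ranges overlapped at both ages, but among the libraries in the tests 22 of 24 males (6 months) and 21 of 21 (10 months) were below the female mean of their age. The log2 difference was -0.18 at 6 months (SE 0.042, adjusted p = 0.000875 by edgeR, a change of -11.6%) and -0.26 at 10 months (SE 0.040, adjusted p = 7.25e-07 by edgeR, a change of -16.4%). Without the libraries with the 4 tags the differences were -0.17 and -0.29, and both passed.

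let-7a-1, the let-7a hairpin with more counts, was lower in males by a like amount at both ages. At 6 months its lowest, median and highest levels were 4304, 6304 and 7873 CPM in females and 2974, 5484 and 7698 CPM in males. At 10 months they were 3769, 6454 and 8501 CPM in females and 4434, 5761 and 7966 CPM in males. The log2 difference was -0.17 (SE 0.053, adjusted p = 0.00978 by edgeR) and -0.18 (SE 0.056, adjusted p = 0.00619 by edgeR), with 21 of 24 and 20 of 21 males below the female mean.

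let-7b, at the other cluster, had a difference that passed at 10 months and not at 6 months. At 10 months its lowest, median and highest levels were 1438, 1677 and 1870 CPM in females and 1115, 1472 and 2258 CPM in males, the highest male being the Q92 library with tag LB26 that the tests left out. The log2 difference was -0.17 (SE 0.035, adjusted p = 0.000111 by edgeR), with 21 of 21 males in the tests below the female mean. At 6 months it was -0.07 (SE 0.038, adjusted p = 0.140 by edgeR, 20 of 24 males below), and it passed in 16 of the 48 fits that left out 1 library. Its lowest value among them, -0.12, came without Q92 male replicate 4. In that fit let-7d (-0.24), let-7a-1, let-7a-2 and let-7f-2 (-0.23) were also at their lowest, and the other members were not. That shift was therefore not particular to let-7b, and its cause was not tested.

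let-7f-2, the most abundant member, had a sex difference that passed or not depending on the libraries included, among them those with the 4 tags. Its call at 6 months was lost without any of 5 single libraries, of which only Q140 male replicate 2 has such a tag. At 6 months its lowest, median and highest levels were 14121, 18660 and 23820 CPM in females and 8055, 17155 and 20731 CPM in males, and the 3 lowest males are libraries with those tags. The log2 difference was -0.17 (SE 0.065, adjusted p = 0.0364 by edgeR) with them and -0.10 (SE 0.044, adjusted p = 0.0626 by edgeR) without them. At 10 months it was -0.11 (SE 0.066, adjusted p = 0.170 by edgeR) with them and -0.12 (SE 0.031, adjusted p = 0.00117 by edgeR) without them. let-7c-2 at 10 months likewise moved from -0.09 (adjusted p = 0.0915) to -0.12 (adjusted p = 0.0114), both by edgeR, when these libraries were left out, which raised the count of members lower in males at 10 months to 5.

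The other members did not pass at either age. let-7a-2 was at -0.10 and -0.20 (male minus female, log2, at 6 and 10 months), with 95% intervals of -0.27 to 0.07 and -0.41 to 0.02. let-7c-1 was at 0.12 and 0.00, let-7f-1 at 0.04 and -0.09, and let-7e at -0.04 and 0.13. The interval of let-7f-1 was the widest, -0.37 to 0.44 at 6 months, and narrowed to -0.07 to 0.14 without the libraries with the 4 tags. That narrowing follows from the choice of tags, since those libraries are the ones with low let-7f-1. let-7e was above the female mean in 16 of 21 males at 10 months, with an interval of -0.01 to 0.27, and of 0.0025 to 0.24 (adjusted p = 0.0891 by edgeR) without those libraries.

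**Figure D3:**
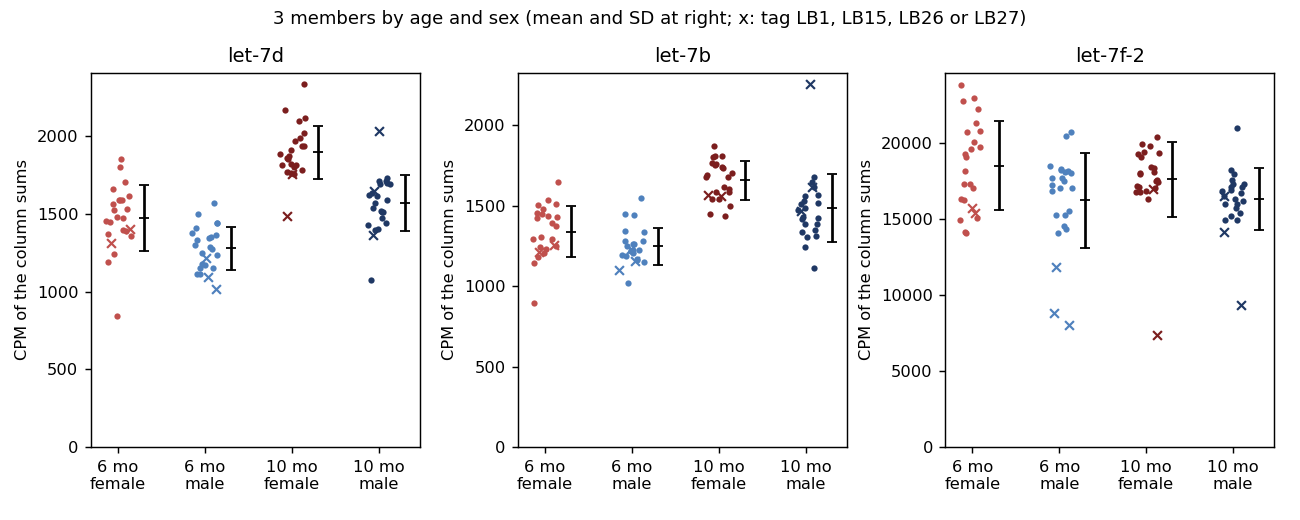
Levels of let-7d, let-7b and let-7f-2 in CPM of the column sums, by age and sex, with 24 libraries a group. Points are libraries, crosses are those with tags LB1, LB15, LB26 and LB27, and bars at the right of each group are the mean and SD; let-7d and let-7b are higher at 10 months in both sexes, and the lowest let-7f-2 values are crosses.

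The sex differences were also fitted within single lane tags, which hold fewer libraries. At 6 months let-7d was at -0.08 (SE 0.10) within L6 (18 libraries) and -0.25 (SE 0.054) within L7 (27 libraries), and let-7a-1 at -0.12 (SE 0.13) and -0.24 (SE 0.069). Both passed within L7 and neither within L6, where 0 members passed. At 10 months let-7d, let-7a-1 and let-7b were at -0.32, -0.29 and -0.21 within L6 (24 libraries) and all passed. Within L5 (12 libraries) they were at -0.16, -0.07 and -0.17, and within L7 (8 libraries) at 0.00, 0.36 and -0.08, and 0 members passed in either. The direction of let-7d and let-7a-1 at 10 months did not hold within L7, where the SE was 0.18 and 0.24. Only Q20 and WT of the Q50 line had both sexes there, with a female and a male each. That WT female carries tag LB1 and had 3769 CPM of let-7a-1, so the fit within L7 cannot decide the direction.

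The age comparison sets 44 mice of 10 months against 48 of 6 months, with genotype, line and sex as covariates. let-7d and let-7b were higher at 10 months under every processing tried, and let-7c-2 was higher under some. let-7f-2 and let-7a-2 were lower relative to the other hairpins, under some processing only. In the log2 scale of the test (10 minus 6 months) 5 of 9 members passed, 3 higher and 2 lower, where 58.6% of 408 hairpins passed, 31.6% higher and 27.0% lower, so the members' share is no greater than the background. The median over the members was -0.02, and over all hairpins tested 0.01.

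let-7d rose by 0.21 (SE 0.029, adjusted p = 1.68e-09 by edgeR), or 15.8%, on the scale of the test. The medians and counts of mice that follow are in CPM of the column sums, a different scale on which the rises were larger, as given below. The median of let-7d went from 1477 to 1865 CPM in females and from 1279 to 1581 CPM in males. In CPM, 44 of 44 mice of 10 months in the tests were above the 6-month mean of their sex. let-7b rose by 0.15 (SE 0.024, adjusted p = 2.01e-07 by edgeR), or 10.6%, on the scale of the test. Its medians at 6 and 10 months were 1342 and 1677 CPM in females and 1224 and 1472 CPM in males, with 43 of 44 mice above. let-7c-2, which neighbours let-7b, was at 0.09 (SE 0.039, adjusted p = 0.0312 by edgeR), with a median of 3763 and 4401 CPM in females, 3491 and 3987 CPM in males, and 38 of 44 mice above. Of the noncoding genes that hold members in exons, Lncppara had both of its members, let-7b and let-7c-2, higher at 10 months. In 6720427I07Rik only let-7d rose: let-7a-1 was at -0.02 (SE 0.042, adjusted p = 0.683 by edgeR) and let-7f-1 at 0.01 (SE 0.14, adjusted p = 0.949 by edgeR).

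let-7f-2 was at -0.16 (SE 0.049, adjusted p = 0.00456 by edgeR) and let-7a-2 at -0.18 (SE 0.070, adjusted p = 0.0219 by edgeR). In CPM of the column sums the groups of let-7f-2 lay close together. Its median was 18660 CPM at 6 months and 17792 CPM at 10 months in females, and 17155 and 16549 CPM in males, with 25 of 44 mice of 10 months below the 6-month mean of their sex. let-7a-2 had medians of 510 and 497 CPM in females and 464 and 457 CPM in males, with 28 of 44 mice below. let-7c-1 was at -0.04 (SE 0.070) and let-7e at -0.08 (SE 0.065), and neither passed.

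Scaling decides part of this comparison. The tests scale libraries by TMM, which sets them to a common level of most hairpins. With the column sums alone, the median hairpin was 0.13 higher at 10 months, and 70.3% of the calls were higher instead of 54.0%. On that scale let-7d was at 0.33, let-7b at 0.26 and let-7c-2 at 0.21, and all passed, while let-7f-2 at -0.04 (adjusted p = 0.567 by edgeR) and let-7a-2 at -0.06 (adjusted p = 0.490 by edgeR) did not. let-7a-1, let-7c-1 and let-7e, below 0 with TMM, were at 0.09, 0.08 and 0.03 and did not pass.

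The lane tags are spread unequally over the ages: L5 holds only 10-month libraries in the tests, L8 only 6-month libraries, and L6 and L7 both. Whether a lane tag means the same run at both ages is not stated. The leading numbers of the library labels also fall in separate ranges at each age. Age and processing batch therefore cannot be told apart, with or without lane as a covariate. With lane as a covariate let-7d was at 0.25 and let-7b at 0.15, and both passed, while let-7c-2 (0.08, adjusted p = 0.0713), let-7f-2 (-0.12, adjusted p = 0.0677) and let-7a-2 (-0.06, adjusted p = 0.531), all by edgeR, did not. Without the libraries with the 4 tags the same 5 members passed in the same directions.

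**Figure D4:**
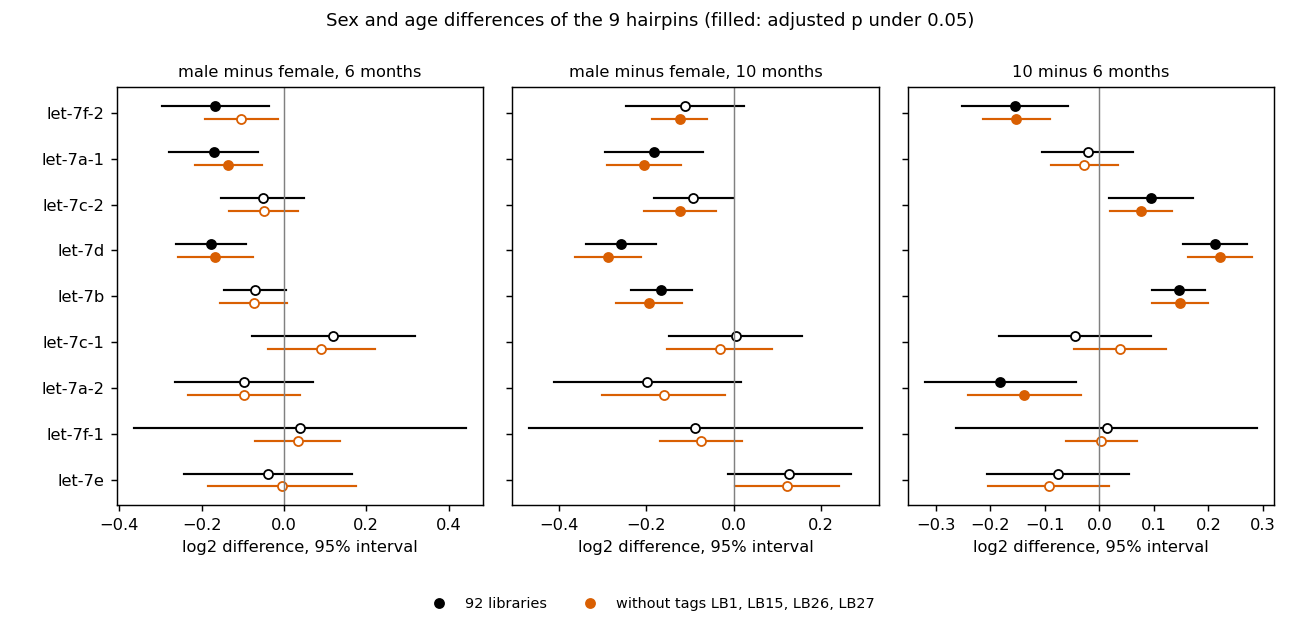
Log2 differences with 95% intervals for the 9 hairpins: male minus female at 6 and at 10 months, and 10 minus 6 months. Black is the fit of 92 libraries, orange the fit without tags LB1, LB15, LB26 and LB27, and filled points have an adjusted p under 0.05; let-7d lies away from 0 in all 3 panels, and let-7f-1 has the widest interval until those libraries are left out.

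Since copies of a pair cannot be told apart by their 5p reads, the comparisons were repeated on the sum of each pair. The sum of let-7a-1 and let-7a-2 was lower in males at both ages (-0.17 and -0.18, both past the threshold) and at -0.05 for age (adjusted p = 0.324 by edgeR). The sum of let-7f-1 and let-7f-2 was at -0.17 at 6 months (adjusted p = 0.0365), -0.11 at 10 months (adjusted p = 0.230) and -0.17 for age (adjusted p = 0.00336), all by edgeR. The sum of let-7c-1 and let-7c-2 passed in no comparison of sex or age, with 0.05 for age (adjusted p = 0.0679 by edgeR). The rise of let-7c-2 with age therefore did not pass in the sum of its pair.

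Whether the sex difference itself changed between the ages was tested as an interaction of sex and age. By edgeR 0 of 9 members and 0 of 408 hairpins (0.00%) passed, while 51 hairpins (12.5%) had an unadjusted p under 0.05, and DESeq2 called 2 hairpins, neither of them a member. let-7b had the smallest unadjusted p of the members, 0.0682, at -0.09 (SE 0.047, adjusted p = 0.430 by edgeR). For let-7d the difference between the ages was -0.08 with a 95% interval of -0.19 to 0.04. A sex difference that passed at 1 age and not at the other is thus not shown to differ between ages for any member.

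The main question of the study is whether microRNAs respond to the CAG length of Htt. For the let-7a to let-7f hairpins 0 of 9 members passed in any of 16 comparisons of genotype or CAG length: Q50, Q92 and Q140 each against the controls (WT of both lines and Q20), CAG length as a number, Q20 and Q50 each against WT of its own line, and the ages combined. In the whole table, 0 to 8 hairpins passed in each of these comparisons. For the controls comparisons at 6 months the share was 0.00% for Q50, 0.267% for Q92 and 0.00% for Q140, and at 10 months 0.00%, 1.04% and 1.31%. For CAG length it was 0.00% at 6 months and 2.09% at 10 months. With the ages combined it was 0.546% for CAG length, 0.00% for Q50, 0.273% for Q92 and 0.00% for Q140, and against the WT of the same line it was 0.00% for Q20 and for Q50 at both ages. At an unadjusted p under 0.05 the shares of all hairpins at 6 months were 1.87% (Q50 against controls), 7.75% (Q92), 1.34% (Q140), 2.14% (CAG length), 6.42% (Q20 against its own WT) and 0.267% (Q50 against its own WT). At 10 months they were 2.35%, 17.0%, 13.6%, 17.0%, 10.2% and 4.44%, in the same order. With the ages combined they were 8.47% for CAG length, 2.73% for Q50, 7.65% for Q92 and 7.10% for Q140. DESeq2 called 0 to 17 hairpins in each comparison and 0 members. Among the members, 3 of 108 single-age values had an unadjusted p under 0.05. No fit that used another normalization, filter, tool, control group or set of libraries brought a member past the threshold, in 186 such fits and 920 fits that left out 1 library.

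The intervals say how large a difference these data leave room for. Without let-7f-1, the 48 log2 differences from controls ran from -0.16 to 0.21, and their 95% intervals reached from -0.44 to 0.47 at the outermost. let-7d in Q140 at 10 months was at -0.07 (95% interval -0.18 to 0.03, adjusted p = 0.554 by edgeR), and let-7b at -0.05 (-0.15 to 0.05). For let-7f-1 the values ran to -0.25 in Q50 at 10 months and 0.26 in Q50 at 6 months with intervals of -0.78 to 0.29 and -0.35 to 0.88. Without the libraries with the 4 tags, 6 values of let-7f-1 against controls lay between -0.13 and 0.02, with intervals from -0.25 to 0.16. In the same fits 4 members had an interval below 0 in Q140 at 10 months: let-7a-2 at -0.25 (-0.43 to -0.06, adjusted p = 0.205 by edgeR), let-7f-1 at -0.13 (-0.25 to -0.01), let-7d at -0.10 (-0.20 to -0.01) and let-7f-2 at -0.09 (-0.18 to -0.01). None of these 4 passed the adjusted threshold, and 13.6% of 381 hairpins had an unadjusted p under 0.05 in the same fit.

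The members with the smallest unadjusted p in each comparison were spread over the family. let-7c-2 was at 0.16 in Q50 at 6 months (SE 0.075, unadjusted p = 0.0389, adjusted p = 0.998 by edgeR), and at 0.08 without the libraries with the 4 tags. Its levels there were 2106, 3630 and 4701 CPM (lowest, median and highest of 8 mice) against 2657, 3563 and 4820 CPM in 24 controls. let-7a-1 was at 0.15 in Q92 at 6 months (SE 0.074, unadjusted p = 0.0499, adjusted p = 0.608 by edgeR), with levels of 2974, 6329 and 7873 CPM against 3955, 5784 and 7858 CPM. let-7e was at 0.27 in Q50 against WT of its line at 10 months (SE 0.12, unadjusted p = 0.0362, adjusted p = 0.976 by edgeR), with levels of 157, 234 and 304 CPM in 8 Q50 mice against 120, 191 and 229 CPM in 7 WT mice. In each of these the group ranges overlapped.

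In the other comparisons against controls, let-7e was at -0.14 in Q140 at 6 months (SE 0.14), at -0.10 without the libraries with the 4 tags, and at -0.06 without Q140 male replicate 2 alone. let-7c-1 was at 0.14 in Q50 (SE 0.11) and -0.16 in Q92 (SE 0.13) at 10 months. Without the libraries with the 4 tags these were 0.06 and -0.06, and leaving out Q50 male replicate 2 alone took the first to 0.02. let-7c-1 in Q92 at 10 months turned to 0.12 (adjusted p = 0.754 by edgeR) when all libraries were kept. The libraries so restored include a Q92 male with 3227 CPM, and which of them turned the sign was not tested. let-7a-2 was at -0.26 in Q20 against its WT (SE 0.15) and 0.26 in Q50 against its WT (SE 0.15) at 6 months, and at -0.19 and 0.09 without the libraries with the 4 tags. let-7b was at 0.05 in Q20 against its WT at 10 months (SE 0.061).

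**Figure D5:**
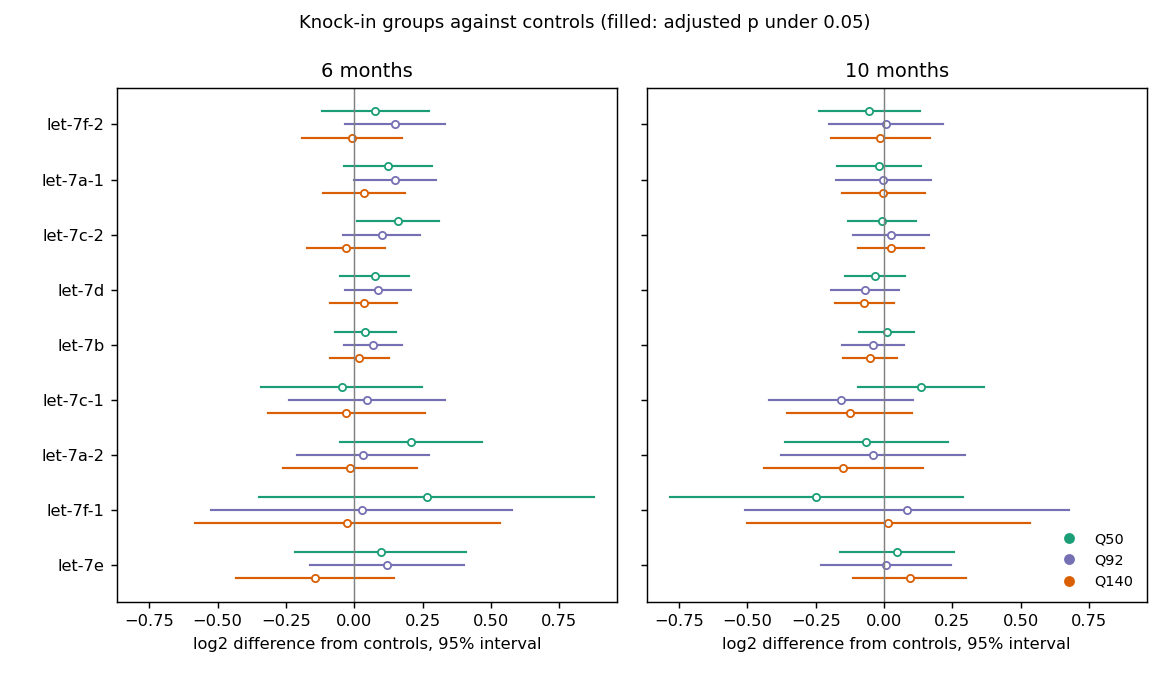
Log2 differences of Q50, Q92 and Q140 from the controls, with 95% intervals, for each hairpin at 6 and 10 months. All points are open, since no adjusted p was under 0.05, and the widest intervals are those of let-7f-1.

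As a number, CAG length gave slopes between -0.12 and 0.07 in log2 per 100 repeats over the 18 values of the 9 members and both ages. let-7a-1 had the smallest unadjusted p at 6 months, with a slope of 0.06 (95% interval -0.05 to 0.17), and let-7d at 10 months, with -0.06 (-0.14 to 0.01, adjusted p = 0.402 by edgeR). Without the libraries with the 4 tags the slopes ran from -0.18 to 0.08. In that fit 4 members had an interval below 0 at 10 months, and 0 passed the adjusted threshold: let-7a-2 at -0.18 (-0.32 to -0.04, adjusted p = 0.211 by edgeR), let-7f-1 at -0.10 (-0.19 to -0.01), let-7d at -0.09 (-0.16 to -0.02) and let-7f-2 at -0.07 (-0.13 to -0.01). Of all 381 hairpins 16.8% had an unadjusted p under 0.05 there. With those libraries let-7f-1 was at 0.04 and let-7a-2 at -0.09. With the ages combined, the largest sum of Z in size was -0.99 for CAG length (let-7c-1, adjusted p = 0.878), 1.36 for Q50 (let-7c-2, adjusted p = 0.9996), 1.36 for Q92 (let-7a-1, adjusted p = 0.767) and -0.91 for Q140 (let-7c-1, adjusted p = 0.929), from the edgeR tests of each age. The members named for CAG length and Q140 rest on the libraries with the 4 tags: without them let-7c-1 was at -0.08 and -0.31, and let-7a-2 had the largest sum, -1.99 (adjusted p = 0.441) and -1.96 (adjusted p = 0.509), from the same edgeR tests. The comparisons of Q50, Q92 and Q140 share their control mice, so their values for a member are not independent.

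The levels by genotype lay close together for the members with the least spread. let-7d at 10 months had means of 1768 ± 230 CPM in controls (SD, n = 22), 1736 ± 289 in Q50 (SD, n = 8), 1702 ± 239 in Q92 (SD, n = 6) and 1696 ± 139 in Q140 (SD, n = 8), in the libraries of the tests. At 6 months they were 1377 ± 168 CPM (SD, n = 24), 1387 ± 209, 1393 ± 306 and 1351 ± 210 CPM (SD, n = 8 each). let-7b at 10 months was at 1566 ± 151 CPM in controls (SD, n = 22) and 1537 ± 113 CPM in Q140 (SD, n = 8). The means of these groups differed by less than 1 SD.

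Liver is a mixture of cell types, and in such bulk samples fewer cells of a type and less RNA per cell cannot be told apart. This holds for the sex and age differences above.

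The hairpins whose pattern over the 24 group means was most like that of the summed 9 members were found by the mean absolute difference of centred log2 CPM, among 356 other hairpins tested at both ages. They were MI0000590 (0.064, mean 254 CPM), MI0000138 (0.073, mean 1687 CPM) and MI0000575 (0.074, mean 8616 CPM), where the median of all compared was 0.251. All were read in the same libraries, which share depth and scaling with the members.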

How the data were processed

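MicroRNA of 96 mouse livers was sequenced as single-end, strand-specific Illumina HiSeq reads (CASAVA 1.8.2 in the submitters' processing notes), clipped, aligned to mm10 with STAR at default settings and counted with HTSeq. The authors deposited estimated counts per hairpin, unscaled, and how these follow from the stated counting is not given. Many were not whole, for a reason not stated, and they were rounded to whole numbers for the tests. The deposited FPKM values, scaled by the authors to hairpin length and column total, served for order and length.

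The tests used edgeR 4.0.16 in R 4.3.3 (quasi-likelihood, TMM) on hairpins that reached 1 CPM in 8 or more libraries, with Benjamini-Hochberg adjustment over all of them and a threshold of 0.05. Covariates within an age were sex and lane tag, and age was tested without lane tag. WT was given a CAG length of 7, and a slope is per 100 repeats. Ages were combined by summed Z. DESeq2 1.42.0 and other settings were alternatives. Intervals are 95%. Sequences are from RefSeq (9 of 9 hairpins matched) and gene overlaps from GENCODE. The tables used here pair no other hairpin with a name, so the lists of cell type markers and related hairpins were not run. Every member is given for sex and age, and for genotype those past the threshold or else the one with the smallest p. The members, lists and tests were chosen with earlier results of these data known. Replicates are separate mice. Column totals limit the precision of counts.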

Additional observations from a re-analysis of the deposited data

Results flagged for a closer look

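In each of the 24 groups of 4 mice, each member was examined for a library far from the other 3, as a gap to the nearest of them above Dixon's 95% critical value. Of 216 such sets 21 stood out, 9 of them in libraries with the tags LB1, LB15, LB26 or LB27, and chance gives about 1 in 20.

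The 9 with those tags were let-7f-1 at 54.3 CPM in WT females of the Q50 line at 6 months (replicate 3), 67.5 CPM in Q92 males at 10 months (replicate 2), 69.4 CPM in Q20 males at 6 months (replicate 3) and 119.6 CPM in Q50 females at 10 months (replicate 4), all low. The same Q20 male was high for let-7c-1 (1841 CPM) and low for let-7f-2 (8835 CPM), and the same Q92 male, which the tests left out, was high for let-7c-1 (3227 CPM) and let-7b (2258 CPM). let-7f-2 was low at 7381 CPM in WT females of the Q50 line at 10 months (replicate 4).

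Among the other libraries, let-7d was low at 1446 CPM in WT females of the Q20 line (replicate 1) and 1192 CPM in WT females of the Q50 line (replicate 1) at 6 months, and at 1075 CPM in WT males of the Q50 line at 10 months (replicate 3, left out of the tests). let-7a-2 was high at 815 CPM in WT males of the Q20 line at 10 months (replicate 3, also left out), 709 CPM in WT males of the Q50 line at 6 months (replicate 4) and 512 CPM in Q140 females at 10 months (replicate 3). That WT male of 6 months was also high for let-7c-1, at 1193 CPM. Replicate 3 of the Q50 females at 6 months was high for let-7b (1645 CPM) and let-7f-2 (22812 CPM). let-7a-1 was high at 7858 CPM in Q20 females at 6 months (replicate 4), let-7c-2 at 5116 CPM in Q92 females at 10 months (replicate 4), and let-7f-1 was low at 448 CPM in Q140 females at 6 months (replicate 2).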

How the results depend on the processing

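let-7d and let-7b kept their rise with age past the threshold in every fit run. The count of members called for age, 5, was 3 with column sums, 3 with no filter, 3 of 6 with copies summed and 2 with the lane tag as covariate. It was 4 with all libraries kept (let-7a-2 lost), and 4 with a Z.k limit of -3, DESeq2 size factors and DESeq2's own test (let-7c-2 lost). For sex at 6 months, 3 became 5 with a Z.k limit of -3, 4 with column sums, 2 with no lane tag, within lane L7 or without the libraries with the 4 tags, and 0 within lane L6, and at 10 months 3 became 5 without the libraries with tags LB1, LB15, LB26 and LB27 (chosen after seeing the data), 4 with column sums, 0 within L5 and 0 within L7. Leaving out 1 library each gave 2 to 4, 3 to 4 and 4 to 5 members for sex at 6 months, sex at 10 months and age, and 0 elsewhere. let-7f-2 at 6 months lost its call without any of 5 libraries, of which only Q140 male replicate 2 (-0.14, adjusted p = 0.0554 by edgeR) has such a tag. let-7c-2 lost its call for age without any of 4, which include Q20 male replicate 4 at 10 months (0.07, adjusted p = 0.152 by edgeR). Without that Q20 male every member had its lowest age value, with let-7d at 0.18 and let-7f-2 at -0.18. The shift was therefore not particular to let-7c-2, and its cause was not tested.

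Among the sex and age values of every member, and the genotype value with the smallest p in each comparison, signs turned in these cases, and the cause was not tested. For sex at 6 months, let-7f-1 was at -0.057 (Z.k limit of -3), -0.029 (no lane tag), -0.057 (within L6) and -0.16 (within L7), and let-7a-2 at 0.049 (within L6). For sex at 10 months, L7 (8 libraries) had both sexes only in Q20 and WT of the Q50 line. Within it let-7d was at 0.0028, let-7f-1 at 1.41, let-7a-1 at 0.36, let-7c-2 at 0.26, let-7c-1 at -0.36, let-7a-2 at 0.37 and let-7f-2 at 0.62. let-7f-1 was at 0.31 within L5, and let-7c-1 at -0.015 (column sums), -0.032 (without the 4 tags), -0.046 (L5) and -0.094 (L6). For age, let-7f-1 was at -0.014 (Z.k limit of -3) and -0.034 (lane tag), let-7a-1 at 0.094 (column sums) and 0.027 (no filter), let-7e at 0.034 (column sums), and let-7c-1 at 0.080 (column sums), 0.0020 (no filter), 0.021 (all libraries kept), 0.022 (lane tag) and 0.038 (without the 4 tags). let-7c-1 in Q92 at 10 months was at 0.12 with all libraries kept, and the CAG slope of let-7d at 10 months at 0.089 within L7. With 1 library left out, let-7f-1 ran from -0.044 to 0.11 for sex at 6 months, from -0.13 to 0.0011 at 10 months and from -0.019 to 0.045 for age, and let-7c-1 from -0.034 to 0.053 for sex at 10 months. Over all members, 29 of 108 genotype and CAG values at a single age changed sign without the libraries with the 4 tags, and 0 of the 108 passed the threshold in either fit.

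With the replicate number as a block, 3, 3 and 5 members were called for sex at 6 months, sex at 10 months and age, and 0 elsewhere. Same-numbered pairs had a median correlation of -0.016 at 6 months and -0.0032 at 10 months. Of them, 56 of 264 at 6 months and 55 of 221 at 10 months correlated above 0.1. Differently numbered pairs were not counted, so these shares alone cannot decide whether the numbers pair the samples.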
